A study of Mus musculus with 39 samples.

Results

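Regions that carried the enhancer mark H3K4me1 without a listed peak region of H3K27ac or H3K27me3 were examined in Pdgfra+ naive extra-embryonic endoderm (nEnd), where they are referred to as Pdgfra+ primed regions. A consensus region of a mark was an interval of merged peaks found in 2 or more of the 3 libraries of a population, and a region was primed where a Pdgfra+ H3K4me1 consensus region lay outside promoters (1 kb upstream to 100 bp downstream of a GRCm38 transcription start) and overlapped no consensus region of either other mark. Of 2079 Pdgfra+ H3K4me1 consensus regions, 1686 lay outside promoters, and 981 of these were primed. Another 692 overlapped H3K27ac (active), 11 overlapped H3K27me3 (bivalent) and 2 overlapped both.

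H3K4me1 is placed on enhancers by the MLL3 and MLL4 methyltransferases, often before the enhancer works. H3K27ac is then added by p300 and CBP at enhancers in use, and H3K27me3 is the product of Polycomb repressive complex 2. Primitive endoderm is the blastocyst lineage that forms visceral and parietal endoderm, and it is driven by GATA6, GATA4 and SOX17. OCT4 is a factor of the pluripotent epiblast that early primitive endoderm also holds.

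The libraries were made by CUT&Tag, in which an antibody brings a transposase to a histone mark so that the DNA around it is tagged and sequenced. They cover H3K4me1, H3K27ac, H3K27me3 and H3K9me3, the last a mark of repressed chromatin, in Oct4+, double positive (DP) and Pdgfra+ cells with 3 libraries each, 36 in all. The 3 populations came from untreated nEnd culture of 1 mouse embryonic stem cell line with a fluorescent OCT4 fusion (OCT4-mCherry) and were separated by FACS on that fusion and on an antibody to the receptor PDGFRA, so they differ in what they were sorted for and share the line and its medium. The study describes its replicates as biological without saying what separated them for these libraries, so p-values measure the spread between these libraries.

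Sequencing depth was unknown, and lists held 1074 to 16057 peaks for H3K4me1, 3079 to 65131 for H3K27ac, 1143 to 8672 for H3K27me3 and 5322 to 29970 for H3K9me3. A region with no listed peak may still carry the mark below the calling threshold. The sort could be read in part in the H3K27ac lists, by peaks within 5 kb of gene starts. Of 12 endoderm markers, among them Gata6, Sox17 and Col4a1, all but Lamc1 and Dab2 had a peak in Pdgfra+. Counts were 10, 10 and 10 in the Pdgfra+ libraries, 11, 7 and 10 in DP and 6, 9 and 1 in Oct4+. H3K4me1 did not follow the sort at these markers, with a peak at 2, 2 and 5 of them in Pdgfra+, 3, 8 and 6 in DP and 5, 7 and 4 in Oct4+, and Gata6, Gata4, Sox17, Pdgfra and Foxa2 had none in any Pdgfra+ library. Among 8 pluripotency markers, 1, 1 and 2 had an H3K27ac peak in Pdgfra+. In DP 3, 1 and 2 did, and in Oct4+ 7, 6 and 6. Nanog, Sox2, Esrrb, Tfcp2l1, Tdgf1 and Zfp42 had none in any Pdgfra+ library, while Pou5f1 and Klf4 had one. Esrrb also had none in any Oct4+ library. Of 6 trophectoderm markers, 3, 1 and 2 had an H3K27ac peak in Pdgfra+, against 1, 2 and 2 in DP and 3, 3 and 0 in Oct4+. Pdgfra+ had none at Gata3, Tfap2c or Eomes. Cdx2 had a peak in Pdgfra+ and in no DP or Oct4+ library.

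Sequences of the primed regions are given here for 3 near starts of endoderm genes and for a member of each pattern described further on. That member ranked highest by Pdgfra+ H3K4me1 in its pattern, except for H3K27ac in DP. There the member nearest to Gata6 ranked first, and the sequence given is that of the next member, beside Klf6. Each sequence is 300 bases of the plus strand of GRCm38 (mm10) around the point of highest H3K4me1 in Pdgfra+ cells. It is in lower case, with capitals where the letters match a searched motif. The searched letters, on both strands, were GATAAG for factors of the GATA family, TGTTTAC for FOX, AACAAT for SOX, ATGCAAAT for OCT, TGANTCA for AP-1, GGAATG for TEAD, TTCCNGGAA for STAT, CAAAGTCCA for HNF4, GGGTGTGGC for KLF, TCAAGGTCA for ESRRB and GCCNNNGGC for TFAP2, and matches of FOX and SOX can overlap. The first 3 sequences lie near Gata4 (chr14:63283625-63283924, intergenic), Pdgfra (chr5:75143767-75144066, in an intron of Gm19583) and Amn (chr12:111267784-111268083, intergenic). Capitals mark 3 GATA matches in the Gata4 sequence, a SOX match in that of Pdgfra and a TFAP2 match in that of Amn.
Gata4: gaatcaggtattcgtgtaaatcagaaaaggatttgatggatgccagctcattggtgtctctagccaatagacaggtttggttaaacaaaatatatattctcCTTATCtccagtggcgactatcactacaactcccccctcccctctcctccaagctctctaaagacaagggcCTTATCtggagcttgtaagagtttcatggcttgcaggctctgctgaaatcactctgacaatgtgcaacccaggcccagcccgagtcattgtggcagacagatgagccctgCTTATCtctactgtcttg
Pdgfra: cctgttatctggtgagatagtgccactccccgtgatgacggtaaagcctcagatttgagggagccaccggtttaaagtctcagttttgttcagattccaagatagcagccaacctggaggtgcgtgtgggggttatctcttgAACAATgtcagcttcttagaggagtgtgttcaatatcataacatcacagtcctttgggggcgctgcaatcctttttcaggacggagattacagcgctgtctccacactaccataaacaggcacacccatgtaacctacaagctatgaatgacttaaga
Amn: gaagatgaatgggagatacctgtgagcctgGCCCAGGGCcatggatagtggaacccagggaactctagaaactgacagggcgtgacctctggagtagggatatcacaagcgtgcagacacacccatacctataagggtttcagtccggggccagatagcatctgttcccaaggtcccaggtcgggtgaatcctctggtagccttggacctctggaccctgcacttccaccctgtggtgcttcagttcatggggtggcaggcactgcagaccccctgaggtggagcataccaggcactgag

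The other 5 sequences stand for patterns across populations and are named after the nearest protein-coding gene. They lie in an intron of Sox5 (chr6:144716491-144716790, H3K4me1 of Pdgfra+ alone), between genes beside Klf6 (chr13:5837392-5837691, H3K27ac in DP), in an intron of Adrb3 (chr8:27250016-27250315, H3K27ac in Oct4+), in an intron of Syngr1 beside Rpl3 (chr15:80097714-80098013, H3K27me3 in DP) and between genes on the side of St6galnac5 (chr3:153051571-153051870, H3K9me3). The Klf6 sequence held 2 AP-1 matches, a TEAD match and a STAT match, that of Sox5 a GATA, an AP-1 and a TFAP2 match, that of St6galnac5 a GATA and a TEAD match and that of Rpl3 a SOX match, while that of Adrb3 held no match.
Sox5: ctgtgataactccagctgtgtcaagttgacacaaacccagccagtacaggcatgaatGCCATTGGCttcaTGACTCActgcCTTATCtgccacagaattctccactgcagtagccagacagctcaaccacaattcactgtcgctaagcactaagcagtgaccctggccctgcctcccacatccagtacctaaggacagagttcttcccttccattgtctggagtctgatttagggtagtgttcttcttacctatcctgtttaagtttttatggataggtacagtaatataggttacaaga
Klf6: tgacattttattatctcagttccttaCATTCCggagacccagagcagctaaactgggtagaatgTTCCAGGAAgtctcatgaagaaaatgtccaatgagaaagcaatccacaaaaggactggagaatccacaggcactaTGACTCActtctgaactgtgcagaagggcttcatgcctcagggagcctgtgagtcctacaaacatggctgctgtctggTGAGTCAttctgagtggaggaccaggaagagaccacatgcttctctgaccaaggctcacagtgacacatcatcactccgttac
Adrb3: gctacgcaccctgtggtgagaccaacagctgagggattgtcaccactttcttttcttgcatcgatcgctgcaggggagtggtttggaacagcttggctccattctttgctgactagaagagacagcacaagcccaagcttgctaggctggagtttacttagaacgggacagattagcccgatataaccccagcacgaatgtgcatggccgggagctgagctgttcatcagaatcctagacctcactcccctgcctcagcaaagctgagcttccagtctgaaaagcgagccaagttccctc
Rpl3: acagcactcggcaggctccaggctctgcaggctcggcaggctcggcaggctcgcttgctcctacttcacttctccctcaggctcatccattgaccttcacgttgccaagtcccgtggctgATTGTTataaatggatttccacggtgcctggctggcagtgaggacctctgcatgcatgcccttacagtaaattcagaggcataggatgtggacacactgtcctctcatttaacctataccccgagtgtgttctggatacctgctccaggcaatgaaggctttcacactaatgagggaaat
St6galnac5: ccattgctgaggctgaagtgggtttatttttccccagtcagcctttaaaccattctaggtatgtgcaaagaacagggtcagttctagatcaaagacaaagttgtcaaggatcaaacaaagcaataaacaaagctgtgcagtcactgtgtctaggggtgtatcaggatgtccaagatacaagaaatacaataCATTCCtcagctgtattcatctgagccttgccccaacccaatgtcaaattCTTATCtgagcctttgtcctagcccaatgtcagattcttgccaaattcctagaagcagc

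The primed regions were chosen by the presence of H3K4me1 peaks and the absence of H3K27ac and H3K27me3 peaks in Pdgfra+ cells, so Pdgfra+ values of these marks are given with no test. The choice rested mostly on 1 library. Replicate 3 of Pdgfra+ H3K4me1 listed 10620 peaks, against 1723 and 1074 in replicates 1 and 2, and it held a peak at 978 of the 981 regions (99.7%). Replicates 1 and 2 held one at 696 and 451. A pair of replicates 1 and 3 supported 530 regions, a pair of 2 and 3 supported 285, and 163 had a peak in 3 of 3 libraries. Another 6616 H3K4me1 regions outside promoters were found in replicate 3 alone and so missed the H3K4me1 consensus. They were counted whatever their H3K27ac or H3K27me3, so not all would have been primed. The median rank of their peaks by maximum signal was the 45.9th percentile of the replicate 3 list, against the 77.2nd for primed regions. Chosen again without replicate 3, the primed regions numbered 187.

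The border with active regions was less narrow in space. No peak of H3K27ac was listed in any Pdgfra+ library at 702 primed regions, 276 had one in 1 library, and 3 had peaks of 2 libraries that did not merge into a consensus region within them. A Pdgfra+ H3K27ac consensus region lay within 1 kb of 27 primed regions and within 20 kb of 344 (35.1%), and 288 were over 100 kb from any. Among active regions, 1 overlapped H3K27ac by 200 bp or less, and the median overlap was 3560 bp. For H3K27me3, 970 primed regions had no listed peak in any Pdgfra+ library and 11 had one in replicate 3.

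Primed regions were mostly intronic and distant from gene starts. Their median width was 2755 bp (quartiles 2244 to 3561), against 3795 bp for active regions, and together they covered 3.04 Mb. The H3K4me1 maximum lay in an intron at 65.4%, between genes at 32.0%, in an exon at 1.33% and in a UTR at 1.22%. The nearest protein-coding gene start was a median of 27.1 kb away, and 414 regions (42.2%) lay within 20 kb of one, against 45.5% of active regions. In 400 bp windows at the maximum, GC content averaged 49.1% and repeats made up 12.8% of bases, against 41.7% and 36.4% over every 10th 400 bp tile of the genome.

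Chromosome 6 held 160 of the 981 primed regions (16.3%) on 5.49% of the genome, or 1.07 regions per Mb, where the other autosomes had 0.24 to 0.541 per Mb and chromosome X had none. Active regions of the same population had 8.53% on chromosome 6, DP primed regions 11.7% and Oct4+ primed regions 10.8%. The share of peaks on chromosome 6 was raised in whole lists of H3K4me1 (8.53 to 14.3% over 9 libraries) and H3K27me3 (7.45 to 14.7%), and lay at 4.71 to 6.34% in H3K27ac and 6.01 to 6.91% in H3K9me3. The part of this chromosome-wide excess in the results was not tested, and the tests, the H3K4me1 and H3K27ac consensus shares in DP and Oct4+ and the endoderm gene share were also computed without chromosome 6. Primed regions on chromosome 6 had H3K4me1 consensus in DP at 80.0% and H3K27ac in DP at 29.4%, against 74.1% and 34.1% on the other chromosomes.

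**Figure D1:**
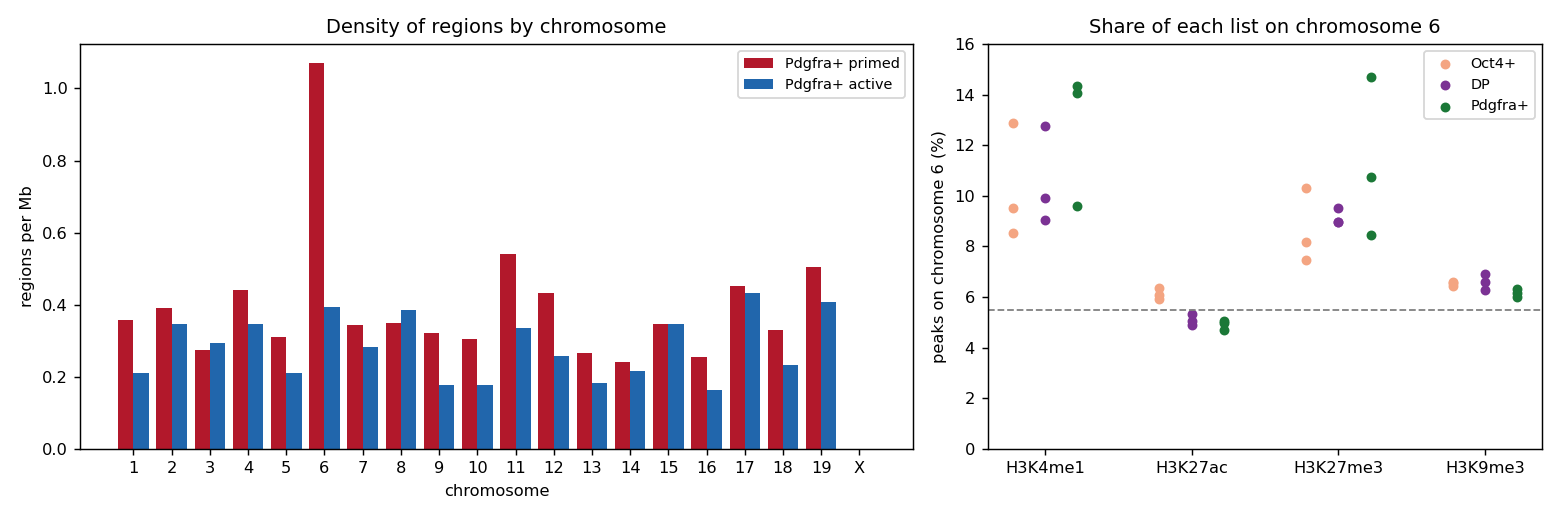
Left, Pdgfra+ primed (red) and active (blue) regions per Mb (y axis) on each chromosome (x axis). Right, percent of the peaks of each of 36 libraries that lie on chromosome 6 (points, coloured by population, y axis from 0) by mark, with the chromosome's 5.49% share of the genome dashed. Primed regions reached 1.07 per Mb on chromosome 6, and the H3K4me1 lists put 8.53 to 14.3% of their peaks there.

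H3K4me1 at the primed regions was listed more often in each DP library than in any Oct4+ library. A peak was present at 51.0, 80.1 and 77.9% of the 981 regions in DP replicates 1 to 3, and at 13.8, 33.5 and 20.9% in Oct4+. The groups did not overlap, and the means were 69.7 ± 16.2% and 22.7 ± 10.01% (SD, n = 3 each). The gap of 46.9 percentage points had an exact two-sided permutation p of 0.1, the smallest that 3 against 3 libraries allow (adjusted p = 0.4 over 4 marks). List length moved with these shares within a population, since the shortest lists were replicate 1 in both (4371 peaks in DP, 4127 in Oct4+). At these near equal lengths the shares were 51.0% and 13.8%. With equal numbers of peaks taken from each list and the regions chosen again (332 regions), the gap was 33.1 points. At active regions the mean H3K4me1 shares were 82.5% in DP and 37.4% in Oct4+, so such a gap was not particular to primed regions.

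Region by region, 525 primed regions had H3K4me1 consensus in DP and not in Oct4+, 18 in Oct4+ and not in DP, 211 in both and 227 in neither. A peak in 3 of 3 DP libraries and 0 of 3 Oct4+ libraries was found at 266 primed regions (27.1%) and at 25.9% of active regions, against 12.1% of the 9255 H3K4me1 regions outside promoters pooled over the 3 populations. The opposite pattern was found at 2 primed regions (0.204%), against 9.31% of the pooled regions. The 128 regions with no H3K4me1 peak in any of the 6 DP and Oct4+ libraries made up 13.0%.

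H3K27ac at the primed regions did not separate DP from Oct4+. Shares were 38.7, 3.26 and 54.3% in DP and 37.0, 53.3 and 8.67% in Oct4+, and each population had 1 library far below its others. The means, 32.1 ± 26.2% and 32.99 ± 22.6%, differed by -0.88 points (exact permutation p = 1, adjusted p = 1), which the spread between replicates exceeded. The low libraries were also the shortest lists of their populations, with 3079 peaks in DP replicate 2 and 8574 in Oct4+ replicate 3. With the regions chosen again without replicate 2 (849 regions), the DP minus Oct4+ difference was 30.3 points. Chosen without replicate 3 (187 regions), it was -14.4 points. Its direction thus changed with the replicate left out, though the regions changed as well as the libraries.

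H3K27me3 was rare at primed regions in each population. Shares were 5.20, 7.34 and 4.18% in DP and 0.306, 1.22 and 4.49% in Oct4+, so the groups overlapped, and the difference of 3.57 points had an exact permutation p of 0.2 (adjusted p = 0.4). With the regions chosen again, it was 8.82 points without replicate 3, 2.36 without replicate 2 and 0.602 with equal numbers of peaks. A peak in 3 of 3 DP and 0 of 3 Oct4+ libraries was found at 26 primed regions (2.65%), against 1.86% of pooled regions and 0.434% of active regions, and the opposite pattern at 0, against 0.0756% of pooled regions. H3K9me3, which no part of the rule used, was found at 3.26, 2.55 and 1.12% in Oct4+, 1.94, 4.79 and 2.55% in DP and 3.98, 0.612 and 3.16% in Pdgfra+. The 3 populations overlapped for H3K9me3 (exact permutation p = 0.807 over all assignments of 9 libraries, adjusted p = 1). H3K9me3 in 3 of 3 libraries of one population and 0 of 3 of another was found at 6 primed regions for DP over Oct4+ and 4 for Oct4+ over DP, against 0.529% and 1.12% of pooled regions. It was found at 2 for Pdgfra+ over Oct4+ and 5 for Oct4+ over Pdgfra+, against 0.421% and 1.36%. As shares of 981 regions these came to 0.612, 0.408, 0.204 and 0.51% in turn.

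**Figure D2:**
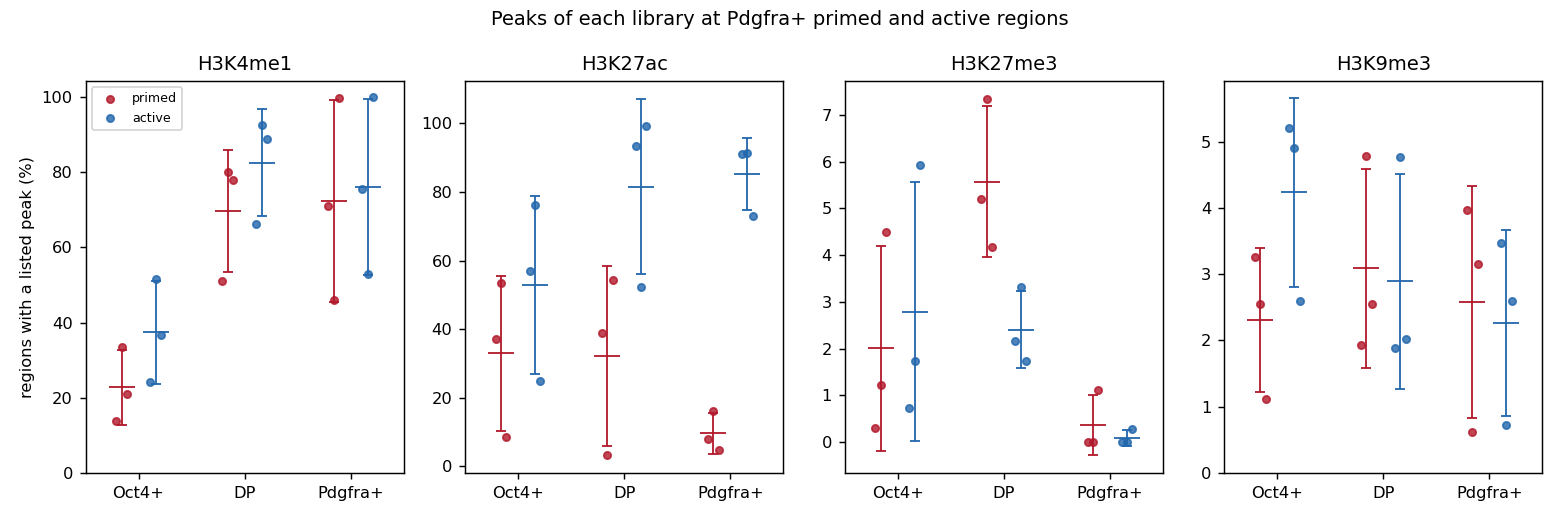
Percent of Pdgfra+ primed (red, 981) and active (blue, 692) regions with a listed peak in each library (y axis; its scale differs between panels) for 4 marks and 3 populations (x axis). Points are libraries, and bars are the mean and SD of 3. H3K4me1 at primed regions reached 51.0 to 80.1% in DP and 13.8 to 33.5% in Oct4+, while H3K27ac ran from 3.26 to 54.3% in DP.

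Primed and active regions of Pdgfra+ cells were then compared in libraries of the other populations, which had not split them. H3K27ac was lower at primed than at active regions in 6 of 6 libraries, with differences of -54.6 to -44.8 points in DP and -23.0 to -16.3 points in Oct4+. The mean difference was -34.6 points (exact two-sided sign-flip permutation p = 0.0312, the smallest that 6 libraries allow, adjusted p = 0.0625 over 4 marks), which did not pass the adjusted threshold of 0.05. H3K4me1 was also listed less often at primed regions in 6 of 6 libraries, with a mean difference of -13.8 points (exact permutation p = 0.0312, adjusted p = 0.0625). With the regions chosen again without replicate 1, that difference was -20.8 points. Since active regions were wider, the H3K27ac and H3K4me1 comparisons were repeated on windows of 1000 bp centred on each region, where the differences were -31.95 and -10.9 points. H3K27me3 differed by 1.19 points (exact permutation p = 0.25, adjusted p = 0.266). With the regions chosen again, it differed by 4.74 points without replicate 3 and 0.649 without replicate 1. H3K9me3 differed by -0.47 points over 9 libraries (exact permutation p = 0.266, adjusted p = 0.266).

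The state of each primed region in the other populations was set from the consensus regions that overlapped it. The full rule for primed regions was not applied again there. In DP, 409 of 981 (41.7%) had H3K4me1 alone, 277 (28.2%) had H3K4me1 with H3K27ac, 39 had H3K4me1 with H3K27me3 and 11 had all 3 marks. H3K27ac without H3K4me1 was found at 39, H3K27me3 without H3K4me1 at 17, and none of the 3 marks at 189 (19.3%). In Oct4+ cells most primed regions, 563 (57.4%), had none of the 3 marks, 73 had H3K4me1 alone, 154 had it with H3K27ac, and 166 (16.9%) had H3K27ac without it. Active regions differed most in DP, where 83.5% had H3K4me1 with H3K27ac and 2.75% had H3K4me1 alone.

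H3K27ac consensus was present at 327 primed regions in DP (33.3%) and at 326 in Oct4+ (33.2%). The counts were near equal but the regions were partly different, with 191 in DP alone, 190 in Oct4+ alone, 136 in both and 464 in neither. At active regions the shares were 94.2% in DP and 56.5% in Oct4+. With the primed regions chosen again, their DP share was 9.17% without replicate 1, 43.5% without replicate 2 and 10.2% without replicate 3. Their Oct4+ share fell to 10.8% without replicate 1 and 10.4% without replicate 2. Of the 276 primed regions with H3K27ac in 1 Pdgfra+ library, 63.0% had it in DP, against 21.5% of the 702 with none. H3K27ac in DP was also listed at 40.7% of the 344 primed regions within 20 kb of Pdgfra+ H3K27ac and at 26.4% of the 288 over 100 kb from it.

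**Figure D3:**
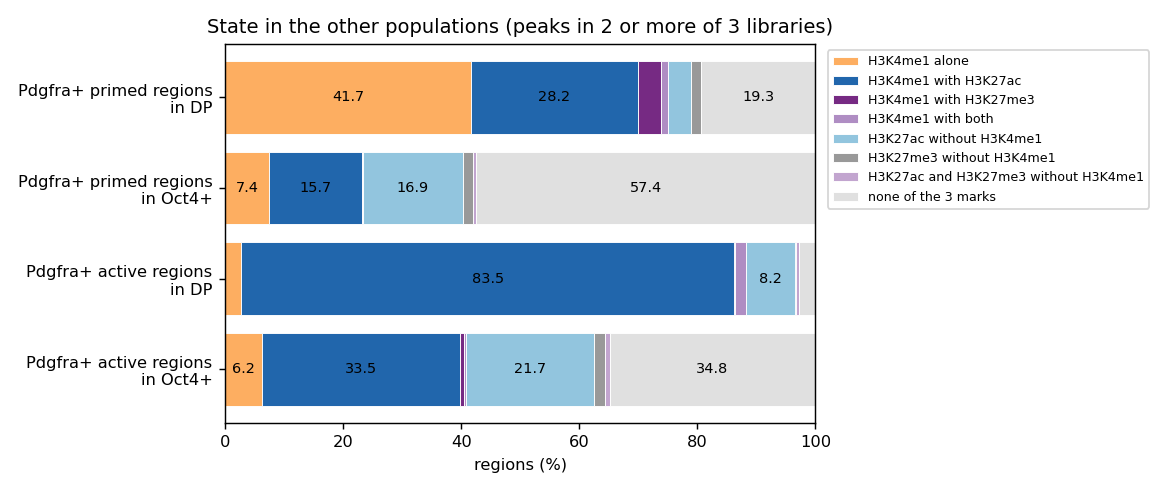
Stacked bars give the percent of Pdgfra+ primed and active regions (x axis) in each combination of consensus marks in DP and in Oct4+ cells. Of primed regions, 41.7% had H3K4me1 alone in DP and 57.4% had none of the 3 marks in Oct4+.

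In percentage points, the sets of regions differed most for the letters of GATA, the family of the primitive endoderm drivers. A GATA match was found in 39.4% of the 400 bp windows of primed regions, 30.6% of active, 30.4% of DP primed and 11.9% of Oct4+ primed regions, and in 14.1% of genome tiles. FOX, the family of FOXA2, had 11.7% in primed regions, 9.97% in active, 6.68% in DP primed, 5.22% in Oct4+ primed and 5.91% in tiles. SOX letters were found in 29.2% of primed regions, near the 27.1% of tiles. TEAD and AP-1 letters were found in more active than primed regions, 35.0% and 27.7% for TEAD and 21.4% and 16.7% for AP-1, against 20.7% and 11.7% of tiles.

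Letters of pluripotency factors, which are longer than those of GATA and SOX, were found in few windows of any set. Shares at primed regions were above those of tiles for KLF and ESRRB and below for OCT. ESRRB letters were found in 1.12% of primed regions, 0.434% of active, 3.59% of Oct4+ primed regions and 0.825% of tiles, KLF letters in 3.16%, 2.89%, 6.99% and 0.512% and OCT letters in 2.14%, 2.17%, 4.41% and 3.48%. In DP primed regions the shares were 1.5% for ESRRB, 3.88% for KLF and 2.38% for OCT. STAT letters were found in 2.34% of primed regions, 3.18% of active regions and 1.02% of tiles, HNF4 letters in 0.917%, 1.59% and 0.527% and TFAP2 letters in 13.6%, 16.9% and 5.22%. A match of letters is a description of the window and not a bound site, and these shares were not tested. Tiles were not matched to primed windows in GC content (41.7% against 49.1%) or repeats (36.4% against 12.8%). The part of base content in the differences from tiles was not tested. Among primed regions the GATA share was 38.5% of the 327 with H3K27ac in DP and 39.9% of the 654 without. It was 34.4% of the 326 with H3K27ac in Oct4+, 32.8% of the 229 with H3K4me1 in Oct4+ and 34.4% of the 227 with H3K4me1 in neither DP nor Oct4+, and 38.8% on chromosome 6.

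**Figure D4:**
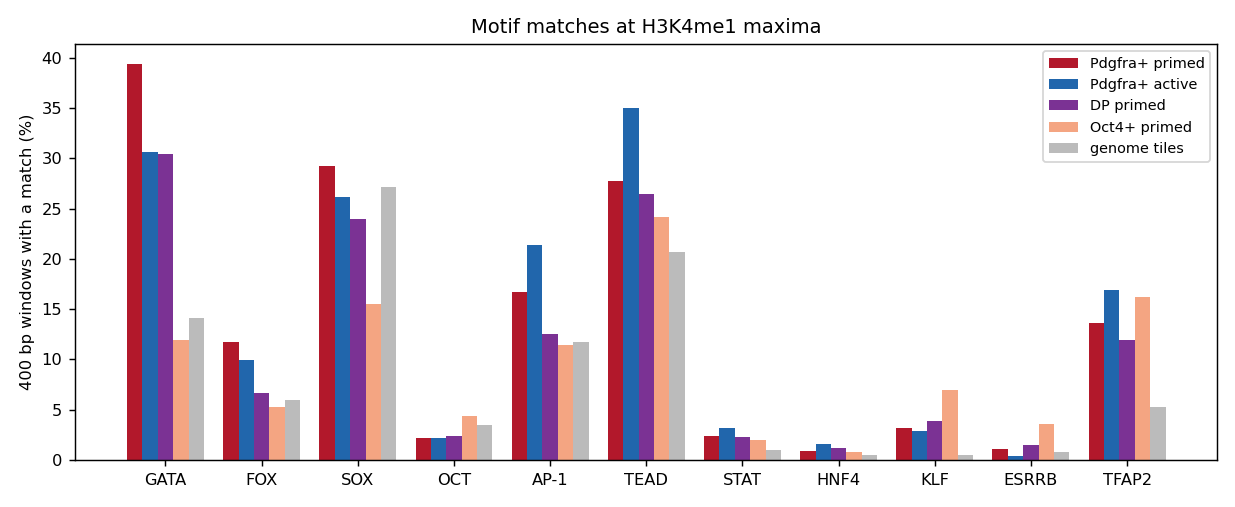
Percent of 400 bp windows holding the letters of each motif (y axis) for 11 motifs (x axis) in 4 sets of H3K4me1 regions outside promoters and in genome tiles (colours). GATA letters were found in 39.4% of Pdgfra+ primed windows, 11.9% of Oct4+ primed windows and 14.1% of tiles.

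Of 25 endoderm genes, 6 (24.0%) had a primed region within 20 kb of their start, against 2.53% of 21938 protein-coding genes. Among them were Gata4, Pdgfra, Lrp2, Amn and Apoa1. Active regions lay near 7 other genes of the list, namely Col4a1, Col4a2, Lama1, Lamb1, Nid2, Sparc and Srgn, of which the first 6 encode collagens, laminins and other proteins of basement membrane. The list was chosen with earlier results of these data known, and its count is a description. With the regions chosen again without replicate 3, the endoderm share exceeded that of all genes by 7.41 points, against 21.5 points with it. Primed regions lay near 1 of 25 pluripotency genes (Klf5), 0 of 25 trophectoderm genes, 2 of 25 visceral and parietal endoderm genes (Plat and Podxl) and 1 of 41 signalling genes (Smad3).

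The region near Gata4, a zinc finger factor of extra-embryonic endoderm, began 11044 bp from the gene start. Its maximum H3K4me1 signal (fragment coverage at the highest point of the listed peak, not scaled to depth) was 5, 7 and 28 in the 3 Pdgfra+ libraries and 20 and 20 in DP replicates 2 and 3, with no peak in DP replicate 1 or in Oct4+. H3K27me3 had a maximum of 24, 18 and 17 in the 3 DP libraries and no listed peak in any Oct4+ or Pdgfra+ library. The 2 marks thus overlapped at this region in DP, and H3K4me1 alone was listed in Pdgfra+. No H3K27ac peak was listed there in any of 9 libraries.

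The region near Pdgfra, the receptor used in the sort, began 6.4 kb from the gene start. H3K4me1 had a maximum of 7 and 17 in Pdgfra+ replicates 1 and 3 and of 7, 26 and 18 in DP, and none was listed in Oct4+. H3K27ac was listed in DP replicates 1 and 3 (13 and 17) and in Pdgfra+ replicate 2 (11), and H3K27me3 in Oct4+ replicate 3 (39). In DP it was therefore counted with H3K27ac.

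Amn encodes amnionless, a partner of cubilin in endocytosis by visceral endoderm, and the region 2.1 kb from its start was marked in all 3 populations. H3K4me1 had a maximum of 9, 25 and 17 in Oct4+, 19, 39 and 30 in DP and 9 and 22 in Pdgfra+ replicates 1 and 3. H3K27ac was listed in Oct4+ replicates 1 and 2 (7 and 9), DP replicates 1 and 3 (43 and 21) and Pdgfra+ replicate 3 (39), where it missed the consensus by 1 library.

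Lrp2 encodes the endocytic receptor megalin and Apoa1 an apolipoprotein that visceral endoderm secretes. The region 15.9 kb from Lrp2 had H3K4me1 of 5 and 15 in Pdgfra+ replicates 2 and 3 and of 20 in DP replicate 2, and that 12.4 kb from Apoa1, in an intron of Sik3, had 10, 12 and 20 in Pdgfra+ and 12 in DP replicate 3. At both regions no H3K4me1 was listed in Oct4+ and no other mark in any library.

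Among the remaining list genes, the region in an intron of Plat, the tissue plasminogen activator of parietal endoderm, had H3K4me1 of 14 and 21 in Pdgfra+ replicates 1 and 3 and of 18 and 10 in DP replicates 2 and 3, and none in Oct4+. A Pdgfra+ H3K27ac consensus region lay 656 bp from it. The region in an intron of Podxl, a sialomucin of epithelial surfaces, had H3K27ac peaks in Pdgfra+ replicates 1 and 3 (15 and 13) that did not merge within it. The region near Klf5, a factor of the early blastocyst, had H3K4me1 in 3 of 3 Oct4+, 3 of 3 DP and 2 of 3 Pdgfra+ libraries and H3K27ac in 1 Oct4+ library. The region in an intron of Smad3, a transducer of Activin and Nodal signals, had H3K4me1 in 2, 3 and 2 libraries of Oct4+, DP and Pdgfra+ and H3K27ac in 2 Oct4+ libraries, 1 DP library and 1 Pdgfra+ library.

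The 10 primed regions with the strongest H3K4me1 in 3 of 3 Pdgfra+ libraries, ranked by percentile within each list, lay in introns of Cald1, Irak2, Trim17, Sox5, Lpar3, Dcaf5 and Ttll3 and between genes nearest to Snx10, Gars and Kbtbd8. Of these, 7 were on chromosome 6. The strongest, in an intron of the actin-binding protein gene Cald1 (chr6:34758858-34762778), had a maximum of 17, 24 and 55 in Pdgfra+ and 24, 40 and 42 in DP and no H3K4me1 in Oct4+. H3K27ac was listed there in DP replicates 1 and 3 (26 and 24) and in Pdgfra+ replicate 2 (16). Of the 10 regions, 9 had H3K4me1 in 3 of 3 DP libraries and 6 had H3K27ac in 2 of them. The exception was the region in an intron of Sox5, a member of the SOX family, with 14, 14 and 39 in Pdgfra+ and no H3K4me1 in DP or Oct4+.

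Regions of each further pattern are given in the order of the percentile of their maximum Pdgfra+ H3K4me1, whatever the mark of the pattern. Sox5 came first among regions with H3K4me1 of Pdgfra+ alone, followed by regions in introns of Zfp618 (nearest to Ambp, which encodes a secreted protease inhibitor and lipocalin) and of Sgce, the gene of epsilon-sarcoglycan. The Zfp618 region had 17 and 29 in Pdgfra+ replicates 2 and 3, and the Sgce region had 12 and 27 in replicates 1 and 3. Other marks were listed in single libraries at these regions. H3K27ac was listed at Sox5 in Oct4+ replicate 1 (7) and Pdgfra+ replicate 2 (13), at Zfp618 in Oct4+ replicate 2 (7) and DP replicate 3 (12), and at Sgce in DP replicate 3 (29) and Pdgfra+ replicate 2 (12). H3K27me3 was listed at Sgce in Oct4+ replicate 3 (11).

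Of the regions with H3K27ac in 3 of 3 DP libraries, those first by Pdgfra+ H3K4me1 were nearest to Gata6, Klf6 and Hk2. Gata6 is the earliest driver of primitive endoderm, and the region began 41.9 kb from its start in an intron of 1010001N08Rik. Its H3K27ac maxima were 21, 12 and 20 in DP, 7 in Oct4+ replicate 2 and 19 in Pdgfra+ replicate 3, and its H3K4me1 maxima were 12 and 31 in Pdgfra+ replicates 1 and 3 and 35 and 20 in DP replicates 2 and 3. The region 23.0 kb from Klf6, a zinc finger factor, had H3K27ac of 57, 22 and 41 in DP, 6 in Oct4+ replicate 2 and 17 in Pdgfra+ replicate 2. That 80.3 kb from Hk2, a hexokinase of glycolysis, had 21, 16 and 17 in DP, 9 in Oct4+ replicate 2 and none in Pdgfra+. The pattern that chose these 3 regions, H3K27ac in 3 of 3 DP libraries, covered 30 primed regions (3.06%). The rule for primed regions excluded Pdgfra+ H3K27ac consensus. H3K27ac was in at most 1 Oct4+ library at these 3 regions. Another region of the pattern, in an intron of Gpr107, had it in 3 of 3 Oct4+ libraries. H3K27ac in 3 of 3 DP libraries with 0 of 3 in Oct4+ was found at 8 primed regions (0.815%), against 1.03% of pooled regions and 51 of 692 active regions (7.37%).

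The opposite pattern, H3K27ac in 3 of 3 Oct4+ and 0 of 3 DP libraries, was found at 14 primed regions (1.43%), against 9.37% of pooled regions and at 0 of 692 active regions. The region first by Pdgfra+ H3K4me1 overlapped the annotated start of Adrb3, which encodes a beta-adrenergic receptor, though no transcript of the basic annotation set began inside the promoter distance. It had H3K27ac of 16, 10 and 7 in Oct4+ and H3K27me3 of 23, 15 and 22 in DP, with H3K4me1 of 13 and 18 in Pdgfra+ replicates 1 and 3. Each population thus had a different mark listed most often there. Another, in an intron of Etl4, had H3K27ac of 15, 23 and 14 in Oct4+ and no H3K27me3 in any library.

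Of the regions with H3K27me3 in 3 of 3 libraries of DP or Oct4+, those first by Pdgfra+ H3K4me1 were nearest to Rpl3, Ptgs1 and Tamm41. The region beside the ribosomal protein gene Rpl3, in an intron of Syngr1, had H3K27me3 of 29, 17 and 15 in DP and none elsewhere, with H3K4me1 in 3 of 3 Oct4+ and 3 of 3 DP libraries. That nearest to Ptgs1, a cyclooxygenase, had H3K27me3 of 7, 13 and 28 in Oct4+ and 14 and 10 in DP replicates 2 and 3. That nearest to Tamm41, an enzyme of mitochondrial cardiolipin synthesis, had 27, 19 and 20 in DP and none elsewhere. None of the 3 had an H3K27me3 peak in Pdgfra+, as the rule required of consensus regions.

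Of the regions with H3K9me3 in 3 of 3 Pdgfra+ libraries, the first by Pdgfra+ H3K4me1 was nearest to St6galnac5, a sialyltransferase, with H3K9me3 of 29, 18 and 13 in Pdgfra+, 13, 15 and 11 in DP and none in Oct4+. The same region had H3K4me1 of 12, 11 and 32 in Pdgfra+ and H3K27ac of 23 and 25 in DP replicates 1 and 3. The regions nearest to Ppp1r36 and in an intron of Mtap had H3K9me3 of 11, 6 and 12 and of 15, 11 and 12 in Pdgfra+, and both also had it in Oct4+ libraries.

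**Figure D5:**
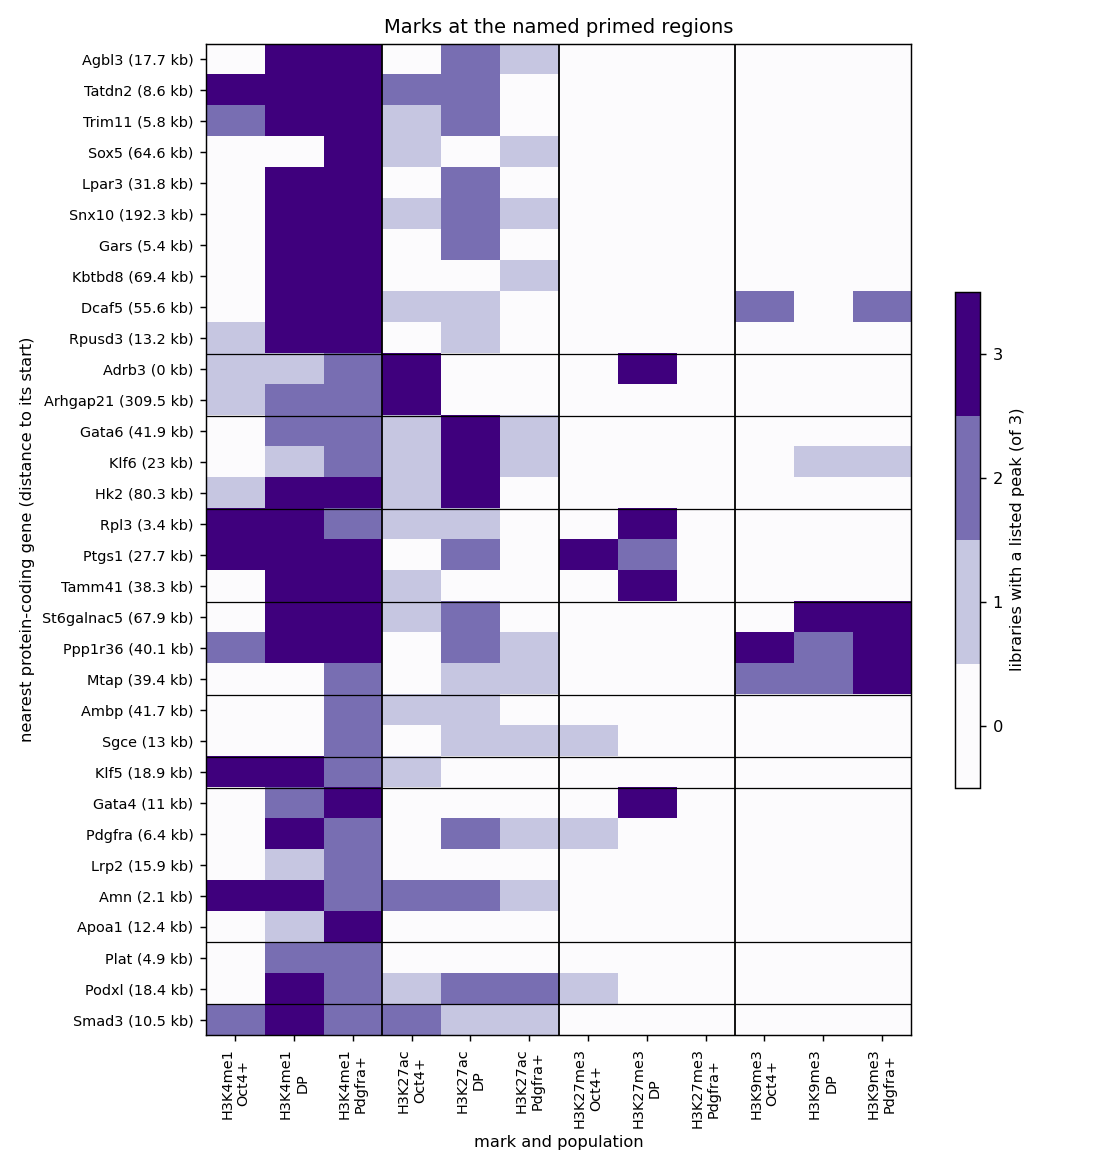
Rows are 32 named primed regions, by nearest protein-coding gene and distance to its start, with lines between the groups of the text. Columns are mark and population, and colour gives the number of 3 libraries with a listed peak. Of the top 10 rows, 9 had H3K4me1 in 3 of 3 DP libraries, and the regions near Gata4, Adrb3, Rpl3 and Tamm41 had H3K27me3 in 3 of 3 DP libraries.

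Primed regions were spread over many genes, with 714 of the 836 nearest genes having 1 region, 103 having 2 and 19 having 3 or more. These 19 were looked at after their counts were seen, and 10 of them were on chromosome 6. Creb3l2, Mical3, Pex26 (chromosome 6) and Smad2 (chromosome 18) had 4 each. The regions of Smad2, a transducer of Activin and Nodal signals, lay 129.6 to 205.4 kb from its start, and 4 of 4 had H3K4me1 and 0 had H3K27ac consensus in DP. The 3 regions nearest to Foxa2, a forkhead factor of endoderm, lay 54.7 to 76.4 kb from its start and had no H3K4me1 or H3K27ac consensus in DP or Oct4+. Tcf7l1, a repressor of Wnt targets, had 3, each with H3K4me1 consensus in DP. Primed regions within 20 kb of another numbered 143 (14.6%).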

How the data were processed

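Peak lists of 36 CUT&Tag libraries were analysed, and 3 IgG samples were not analysed here. Per the labels' processing notes, the authors used bcl2fastq 2.19.1, Bowtie2, SAMtools 1.12, bedtools 2.26.0, deepTools and SEACR with build mm10. SEACR was run per library in stringent mode against IgG. The deposited lists give each peak's total signal and maximum signal as whole numbers of coverage, not scaled to depth, and read numbers are not given in the sources used here.

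Peaks were merged and overlapped (1 bp or more) with NumPy 2.4.6 and pandas 2.3.3 under Python 3.11.15, with SciPy 1.17.1 for intervals and Matplotlib 3.10.9 for plots. Gene starts came from GENCODE vM21 (basic transcripts for promoters) and sequence from RefSeq's GRCm38.p6. The share of regions with a peak was the unit of each test, 1 value per library. Populations were compared by exact permutation over 20 splits or 1680 assignments, and primed with active regions by exact sign flips within libraries, all two-sided, with Benjamini-Hochberg adjustment within 2 families of 4 tests. The overlap and test functions were tested on simulated data.

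Regions named were the 10 of strongest H3K4me1 found in 3 of 3 Pdgfra+ libraries, those within 20 kb of a list gene, and the 3 of each mark pattern with the highest percentile of maximum Pdgfra+ H3K4me1. Genes with several nearest regions were outside this rule, and 2 regions that it names are not reported here. Members and lists were chosen with earlier results of these data known. Alternatives covered the consensus, overlap, peak number, promoters, window, replicates and chromosome 6. Those of the consensus, overlap, peak number, promoters and left-out replicates chose the regions again, so their values reflect changed regions as well as changed lists.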

Additional observations from a re-analysis of the deposited data

Results flagged for a closer look

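The difference between primed and active regions had opposite signs in the libraries of Oct4+ and DP for 2 marks. For H3K27me3, the share with a peak was lower at primed regions in 3 of 3 Oct4+ libraries (-0.417, -0.511 and -1.44 points, mean -0.789 ± 0.565 SD, n = 3, exact test below) and higher in 3 of 3 DP libraries (3.03, 4.02 and 2.44 points, mean 3.16 ± 0.794). The Oct4+ minus DP difference was -3.95 points (exact two-sided permutation p = 0.1, the smallest that 3 against 3 libraries allow). The 2 marks were flagged for opposite signs in all libraries of the 2 populations. That choice fixes this p in advance, so it adds no support. The Oct4+ differences rest on few regions, with a peak at 3 of 981 primed and 5 of 692 active regions in replicate 1. The Gata4, Rpl3, Adrb3 and Tamm41 regions are among the 26 primed regions with H3K27me3 in 3 of 3 DP and 0 of 3 Oct4+ libraries.

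For H3K9me3, it was lower at primed regions in 3 of 3 Oct4+ libraries (mean -1.93 ± 0.443 points) and slightly higher in 3 of 3 DP libraries (mean 0.202 ± 0.281 points). The difference was -2.13 points (exact permutation p = 0.1, fixed in advance in the same way). The DP values of 0.0582 and 0.0222 in replicates 1 and 2 were each under 1 region in their share of 692. In Pdgfra+ libraries the H3K9me3 difference was 0.507, -0.111 and 0.559 points, so its sign varied.

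The H3K27ac difference kept 1 sign in both populations but was larger in DP (-49.4 ± 4.93 points) than in Oct4+ (-19.8 ± 3.33 points), with no overlap of libraries (exact permutation p = 0.1).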

How the results depend on the processing

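Of 152 alternative values, 111 were counted as the same, 26 as moved and 15 as reversed. For a test, the same meant an unchanged direction and side of the threshold. For the number of primed regions it meant a limited fold change. For the consensus and gene shares it meant a value within a binomial interval, which takes regions or genes as independent and is no spread between libraries. No test reached an adjusted p of 0.05 under any alternative. The DP against Oct4+ tests could not reach it under any setting. Nor could the primed against active tests of DP and Oct4+ libraries with a block or with a replicate left out. The number of primed regions was 5387 with consensus in 1 or more libraries, 218 with 3 of 3, 546 with the upper 50% of each list by total signal, 332 with equal numbers of peaks and 3 with a minimum of total signal common to all lists of a mark, for which no other value was computed. It was 187 to 849 with a replicate left out. H3K27ac at primed regions, DP minus Oct4+, was 12.8 points with 3 of 3 consensus, 4.86 with at least 50% of the region overlapped, 6.73 with equal peaks, 2.04 in 1000 bp windows and -14.4 to 30.3 with a replicate left out. H3K9me3, Pdgfra+ minus Oct4+, was -0.0248 with consensus in 1 or more, -0.0666 with 50% overlap and -0.0680 in 1000 bp windows, and its exact permutation p with equal peaks was 0.0464 (adjusted p = 0.186). Primed minus active was -0.00900 for H3K27me3 with consensus in 1 or more, 2.63 with 3 of 3 and 0.649 to 4.74 with a replicate left out, and for H3K9me3 1.15 with 3 of 3, 0.196 with 50% overlap, 0.0889 with equal peaks and -0.18 to 1.03 with a replicate left out. The H3K4me1 share in DP was 66.6% with consensus in 1 or more and 42.8% with equal peaks, and 51.7 to 75.9% with a replicate left out. That of Oct4+ was 17.4% with 3 of 3 and 8.13% with equal peaks, and 13.1 to 22.7%. The H3K27ac share in DP was 11.5% with 3 of 3 and 14.5% with equal peaks, and 9.17 to 43.5%. That of Oct4+ was 48.1% with consensus in 1 or more, 11.9% with 3 of 3 and 9.04% with equal peaks, and 10.4 to 34.8%. The endoderm excess was 59.1 points with consensus in 1 or more, 3.44 within 5 kb and 7.41 to 17.7 with a replicate left out. The equal-peak states, the values without chromosome 6 and those with promoters of the comprehensive annotation (901 primed regions) were chosen after seeing the data. No value computed without chromosome 6 changed direction. The cause of the reversals was not tested.

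Whether replicate numbers paired the libraries was not settled. Deviations of same-numbered libraries correlated at -0.324 to 0.228, and 4 of 36 pairs exceeded 0.1. The best match was the own number in 3 of 9 pairs each for H3K4me1, H3K27ac and H3K27me3 and in 1 of 9 for H3K9me3. For H3K27ac these were the Oct4+ and DP pairs. With replicate number as a block, the H3K4me1 gap of 46.9 points had an exact permutation p of 0.25. The primed minus active difference of H3K27ac (-34.6 points) also had an exact permutation p of 0.25. That is the smallest p that 3 blocks allow in these comparisons, so the blocked tests could not have reached the threshold.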

Other observations

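Primed regions with a peak in 3 of 3 Pdgfra+ H3K4me1 libraries (163) had a median width of 3210 bp and those with 2 of 3 (818) of 2713 bp. H3K4me1 consensus in DP was listed at 89.0% and 72.2% of them, and H3K27ac in DP at 50.9% and 29.8%. On chromosome 6, 40 of 160 primed regions had a peak in 3 of 3 libraries, against 123 of 821 on the other chromosomes.

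At 150 primed regions none of H3K4me1, H3K27ac and H3K27me3 had a consensus region in DP or Oct4+. At 37, H3K4me1 alone of these marks had one in both DP and Oct4+. H3K9me3 consensus of Pdgfra+ overlapped 29 primed regions (2.96%) and 18 active regions (2.60%).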
